A study of Mus musculus with 40 samples.

Results

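High fat food reached these mice either only after weaning, through their own diet, or only before it, through their dam, and the fat of the gonadal pad was compared between the 2 histories. The comparison took in 10 animals called LH and 10 called HL, chosen by the diet labels, of 40 in the whole series, with 1 bead array for each animal. LH animals were born from dams fed the low fat (LF) diet and were themselves fed the high fat (HF) diet after weaning. HL animals were born from dams fed HF from before mating through pregnancy and nursing and were themselves fed LF. All were male mice of the inbred strain C57BL/6J, 9 weeks old when the pads were taken after a short fast. The HF diet was also low in carbohydrate, so that fat and carbohydrate changed together. The other 20 animals kept 1 diet throughout (HH on HF, LL on LF) and served to set the filter on dim probes, in 1 alternative fit, and to split the difference between LH and HL into a maternal and a post-weaning part. LH animals came from 4 breeding cages and HL animals from 5, and no cage held animals of both groups, so that cage and group could be separated only by the spread between cages. The number of arrays, and more so the number of cages, limited the precision.

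White adipose tissue stores fatty acids as triglyceride, some taken up from the blood and some made in the adipocyte itself from glucose. In that second route pyruvate is turned into acetyl-CoA by pyruvate dehydrogenase, exported as citrate, carboxylated by acetyl-CoA carboxylase (Acaca), built into palmitate by fatty acid synthase (Fasn) and lengthened to stearate by the elongase Elovl6. Fat tissue also runs its own circadian clock, a loop in which the factors Clock and Arntl bind E-boxes, and it regenerates active glucocorticoid with the enzyme Hsd11b1. The pad of male mice lies against the epididymis and the testis, so that a dissected pad can carry cells of these organs.

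A set of 3 HL arrays carried bright transcripts of other organs and are treated apart throughout. Gpx5 and Lcn8, secreted proteins of the epididymis, stood at 29219 and 34118 intensity units on HL 2 and at 37044 and 31669 on HL 6. Sis and Vil1, proteins of the intestinal brush border, stood at 11937 and 7725 on HL 8, which also had Spint4, an epididymal gene, at 14215 and Prm1, a protamine of sperm, at 24146. Gpx5 and Sis reached at most 1049 and 73.2 units over the 10 LH arrays and at most 191 and 71.8 over the other 7 HL arrays. The whole epididymis list (19 genes on the array) had a mean level between 70.1 and 214 units on LH arrays and between 69.9 and 1873 on HL arrays, and the 7 other HL arrays ended at 176. The testis list (18 genes) ran up to 569 units on LH arrays, reached on LH 5, and up to 1572 on HL arrays, with 227 as the highest of the 7. The intestine list (18 genes) stayed at or below 104 units on LH arrays and reached 4516 on HL 8. Of the LH arrays, LH 7 had Spint4 at 28252 units and LH 5 had Prm1 at 17240.0 units, and the 7 other HL arrays reached 3732 for Spint4 and 4459.8 for Prm1. LH 5 also had the highest mean level of the skeletal muscle list, 798 units, beside an LH median of 131 and at most 426 on HL arrays. Adipocyte genes moved the other way on the same 3 arrays: Adipoq, the hormone adiponectin, ran from 23061 to 30936 units on LH arrays and stood at 14122, 11332 and 12149 on HL 2, HL 6 and HL 8 and at 25414 to 31669 on the other HL arrays. Results are therefore given over all 20 arrays and over the 17 arrays without HL 2, HL 6 and HL 8. In whole tissue, fewer cells of a type and less RNA per cell cannot be told apart.

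The groups differed in size in opposite directions at the 2 weighings. At 3 weeks, before the animals had a diet of their own, LH animals weighed 7.82 to 11.1 g (median 9.07 g) and HL animals 9.71 to 11.96 g (median 11.0 g), a difference of -1.75 g (permutation test, two-sided, adjusted over the 4 measures, p = 0.00139). At the second weighing, which the labels call weaning although its weights are those of adult mice, LH animals weighed 27.2 to 32.6 g (median 30.6 g) and HL animals 20.38 to 25.82 g (median 24.66 g), and the groups did not overlap (permutation test, adjusted p = 0.00024). LH animals were also longer, at 102.3 ± 2.11 mm against 98.0 ± 2.05 mm in HL animals (SD, n = 10 each, permutation test, adjusted p = 0.00044). Blood glucose was 221.8 ± 29.3 mg/dl in LH animals and 194.0 ± 24.0 mg/dl in HL animals (SD, n = 10 each, permutation test, adjusted p = 0.0319). With cage means as the units (4 LH against 5 HL cages, exact permutation test) the adjusted p was 0.0423 for both weights and for length and 0.0952 for glucose, in a design whose smallest unadjusted p is 0.0159. Without HL 2, HL 6 and HL 8 the adjusted p for glucose was 0.0591 (exact permutation test). Since the second weights did not overlap, group and body weight cannot be told apart in the expression results.

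**Figure D1:**
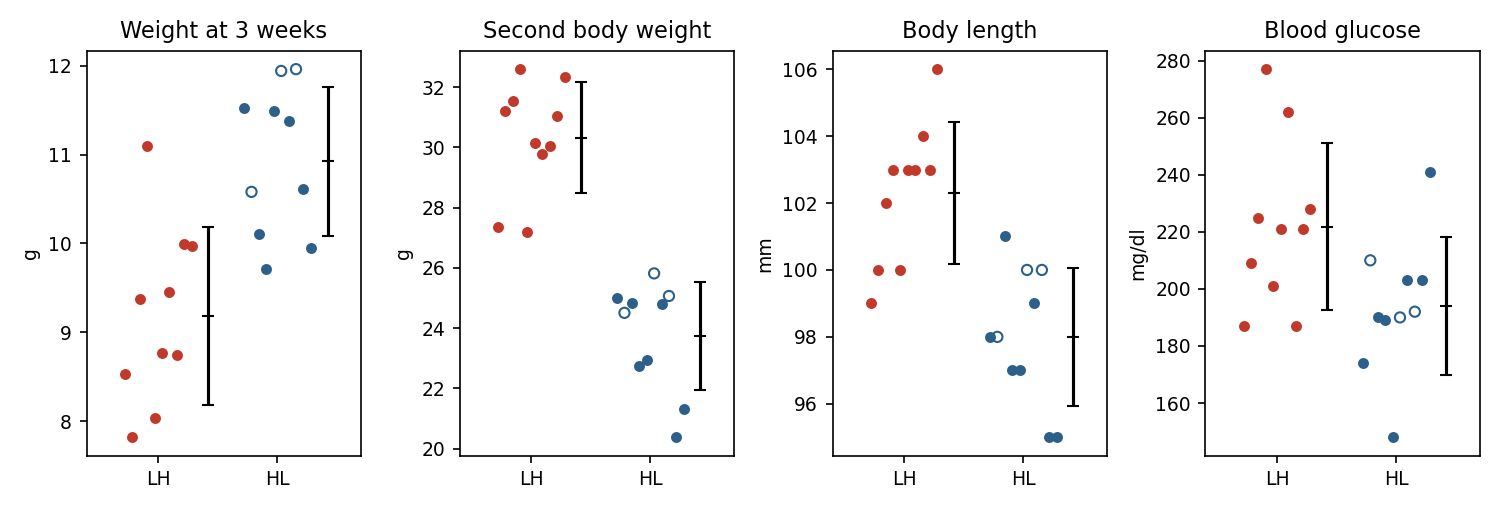
Weight at 3 weeks (g), second body weight (g), body length (mm) and blood glucose (mg/dl) of each LH animal (left, red) and HL animal (right, blue), with open circles for HL 2, HL 6 and HL 8 and bars for the mean ± SD of 10 animals. The LH animals sit lower at 3 weeks and, from 27.2 g upwards, wholly above the HL animals at the second weighing.

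Of 14248 probes (9797 genes) above background, 97 (0.681%) passed the test (limma, two-sided, Benjamini-Hochberg adjusted p under 0.05) over the 17 arrays, 47 higher in LH (0.330%) and 50 lower (0.351%). They stood for 73 named genes, with folds from 1.21 to 3.65 (median 1.53), and 18 of them differed by 2-fold or more. Over all 20 arrays 100 probes (0.702%) of 85 genes passed, 79 higher in LH (0.554%) and 21 lower (0.147%), with folds up to 3.47. The lists of calls shared 50 probes, which is 50% of the calls over 20 arrays and 51.5% of those over 17, with 37 higher and 13 lower and 0 of opposite sign. Of the 47 probes that passed over 17 arrays only, 37 were lower in LH, and of the 50 that passed over 20 arrays only, 42 were higher. LH and HL did not overlap at all for 38 of the 97 probes called over 17 arrays and for 14 of the 100 called over 20 arrays, beside 0.295% and 0.112% of all probes tested. At an unadjusted p under 0.05 there were 1392 probes over 17 arrays (9.77%) and 2906 over 20 (20.4%). The median difference of all probes was 0.004 over 17 arrays and 0.043 over 20 (log2, LH minus HL, as are all differences here). Centring each array on the genes of the adipose lists moved that median over 20 arrays to -0.219, every list median over 20 arrays down by as much, and the calls to 44 higher and 47 lower, and weighting arrays by their quality gave 68 higher and 63 lower.

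**Figure D2:**
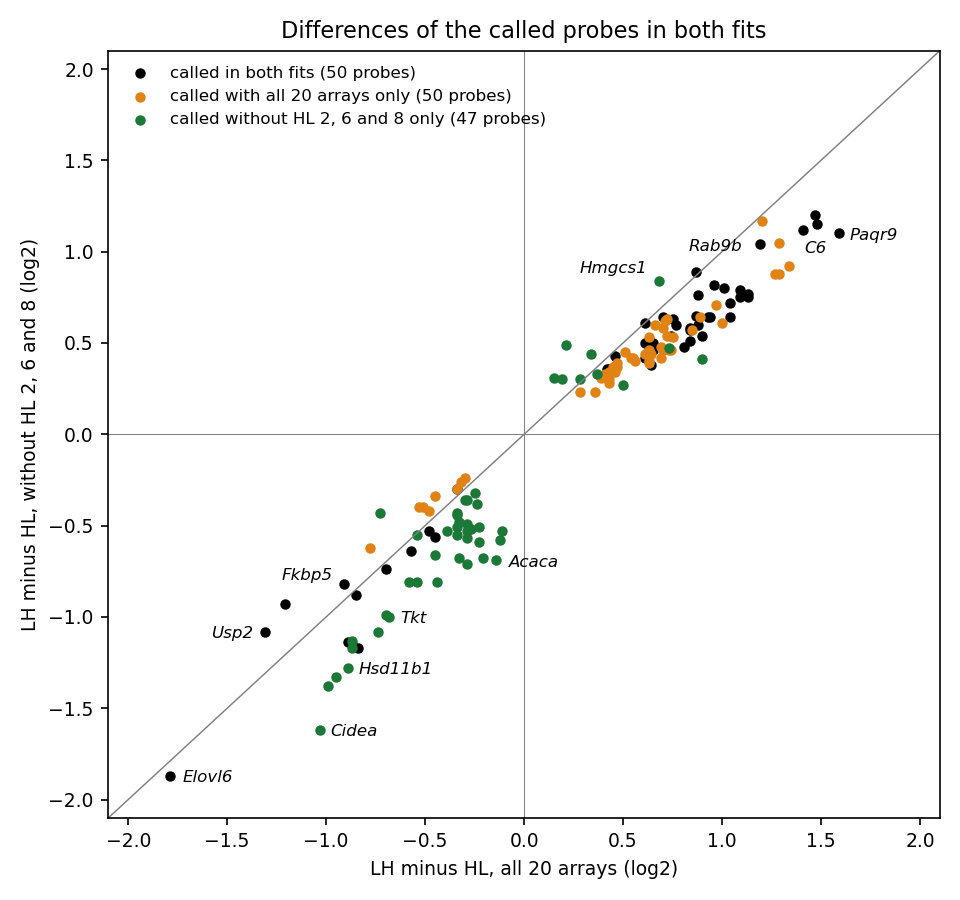
Log2 difference (LH minus HL) of each called probe over all 20 arrays (x axis) and without HL 2, HL 6 and HL 8 (y axis), with the line of equal values. Black points are the 50 probes called both ways, orange the 50 called over 20 arrays only and green the 47 called over 17 arrays only, most of them on the lower side in LH.

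The counts rested on few cages. With the breeding cage as a random block, 49 of the 97 calls over 17 arrays and 21 of the 100 over 20 arrays remained, and with cage means as the units 6 and 0 did (limma, 1546 probes at an unadjusted p under 0.05 over 20 arrays). Leaving out 1 cage at a time gave 40 to 266 calls over 17 arrays, the highest without LH cage 9, and 8 to 567 calls over 20 arrays, the highest without HL cage 12, which held HL 9 and HL 10. The 6 probes that passed over 17 arrays with cage means as units were 2 of C6, 2 of Pcsk4, 1 of Rab9b and 1 of Gnb4, a G protein subunit named here after its values were seen. Every p-value below without mention of cages takes the animals as independent.

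Of the genes that turn glucose into fatty acids, Elovl6 was lower in LH animals over 17 and over 20 arrays and Acaca over 17 arrays only. Elovl6 had the largest difference of all named genes over 17 arrays: its lowest, median and highest intensities were 424, 651 and 1041 in LH animals and 1013, 2590.0 and 6130.4 in the 7 HL animals. The difference was -1.87 ± 0.31 (adjusted p = 0.00666), and over 20 arrays it was -1.79 ± 0.32 (adjusted p = 0.0146) (limma, SE after the sign ±, here and below). HL 9 and HL 10 of cage 12, the lightest HL animals at 20.38 and 21.32 g, had the lowest Elovl6 of the 7 at 1012.5 and 1102 units, against a highest LH value of 1041, and the other 5 lay well above every LH animal. Acaca, which commits acetyl-CoA to fatty acid synthesis, ran at 6066, 8139.5 and 10533 units in LH animals and 9007, 13389 and 21720.4 in the 7 HL animals. Its difference of -0.69 ± 0.15 (adjusted p = 0.04) was only -0.14 ± 0.31 (adjusted p = 0.812) over 20 arrays, with HL 2, HL 6 and HL 8 below every LH animal, at 4857, 5224 and 2238 units. Fasn and Acly, the citrate lyase that releases acetyl-CoA, had differences of -0.67 ± 0.26 and -0.56 ± 0.19 over 17 arrays and did not pass the test.

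Tkt, the transketolase of the pentose phosphate pathway, did not overlap between LH and the 7 HL animals. Its intensity was 2183 to 3437 (median 2511) in LH animals and 4102 to 6783 (median 5368) in the 7 HL animals. All 3 of its probes passed over 17 arrays, and the difference of its brightest probe was -1.0 ± 0.11 (adjusted p = 0.000121), against -0.68 ± 0.19 (adjusted p = 0.0943) over 20 arrays. Pdha1, the catalytic alpha subunit of pyruvate dehydrogenase, spanned 2934 to 3804 (median 3595) units in LH animals and 4291 to 7126 (median 4905) in the 7 HL animals, again with no overlap, and differed by -0.52 ± 0.09 (adjusted p = 0.00732). Of the 6 kinases and phosphatases of that complex that were tested, 2 passed over 17 arrays, both lower, while 3 of the 6 differences were above 0. The kinase Pdk1, which switches it off, differed by -0.53 ± 0.10 (adjusted p = 0.0145) and the phosphatase Pdp2, which switches it on, by -0.43 ± 0.08 (adjusted p = 0.0187). Pdk4, the kinase that rises in fasting, had medians of 1063 units in LH animals and 849.9 in the 7 HL animals with overlapping ranges and did not pass (0.31 ± 0.15). Hk2, the hexokinase that traps glucose in the cell, differed by -0.32 ± 0.06 (adjusted p = 0.0127), the smallest among the named lower genes that passed. Gpd2, the mitochondrial glycerol phosphate dehydrogenase, had lowest, median and highest intensities of 632, 835 and 1398 in LH animals and 1124, 1762 and 2262 in the 7 HL animals, a difference of -0.88 ± 0.17 (adjusted p = 0.0187) that was nearly the same over 20 arrays (-0.85 ± 0.19). Of the 2 probes of Gpd2, 1 passed in each fit, and of the 2 of Pdp2, 1 passed over 17 arrays.

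Gene lists were counted with 1 probe a gene, against 0.367% of all 9797 genes higher and 0.316% lower over 17 arrays, and 0.623% higher and 0.184% lower over 20. De novo lipogenesis and its regulators (22 genes, 20 on the array, 19 above background) had 2 members lower (Acaca and Elovl6) and 1 higher in LH animals over 17 arrays. The median difference was -0.20, beside 0.002 for all genes. Over 20 arrays the median was 0.20, of opposite sign, with 1 lower and 1 higher. The member that was higher was Scd2, a stearoyl-CoA desaturase, at 430.0, 640.2 and 1337 units in LH animals and 283, 386 and 547 in the 7 HL animals (0.89 ± 0.20, adjusted p = 0.0442). Scd1, the main desaturase of fat tissue, was among the brightest probes of the array and differed by only -0.02 ± 0.08; its highest value in both groups was the highest value that the normalization gave to any probe. Glycolysis and pyruvate entry (16 genes) had 0 members higher and 2 lower over 17 arrays (Hk2 and Pdha1) with a median of -0.11, and the pentose phosphate list (7 genes) had only Tkt lower with a median of -0.08. In the respiratory chain list (21 genes) 0 members passed over 17 arrays, and 18 of the 21 differences were below 0 with a median of -0.07. Over 20 arrays the glycolysis, pentose phosphate and respiratory chain medians were 0.04, 0.13 and 0.03, of opposite sign, with 0 members past the test. The calls of Elovl6, Tkt, Pdha1, Pdk1 and Gpd2 over 17 arrays remained with the cage as a random block (adjusted p = 0.0182, 0.000531, 0.0394, 0.0421 and 0.0429), and those of Acaca, Hk2, Pdp2 and Scd2 were lost (adjusted p = 0.119, 0.0708, 0.0603 and 0.0818).

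**Figure D3:**
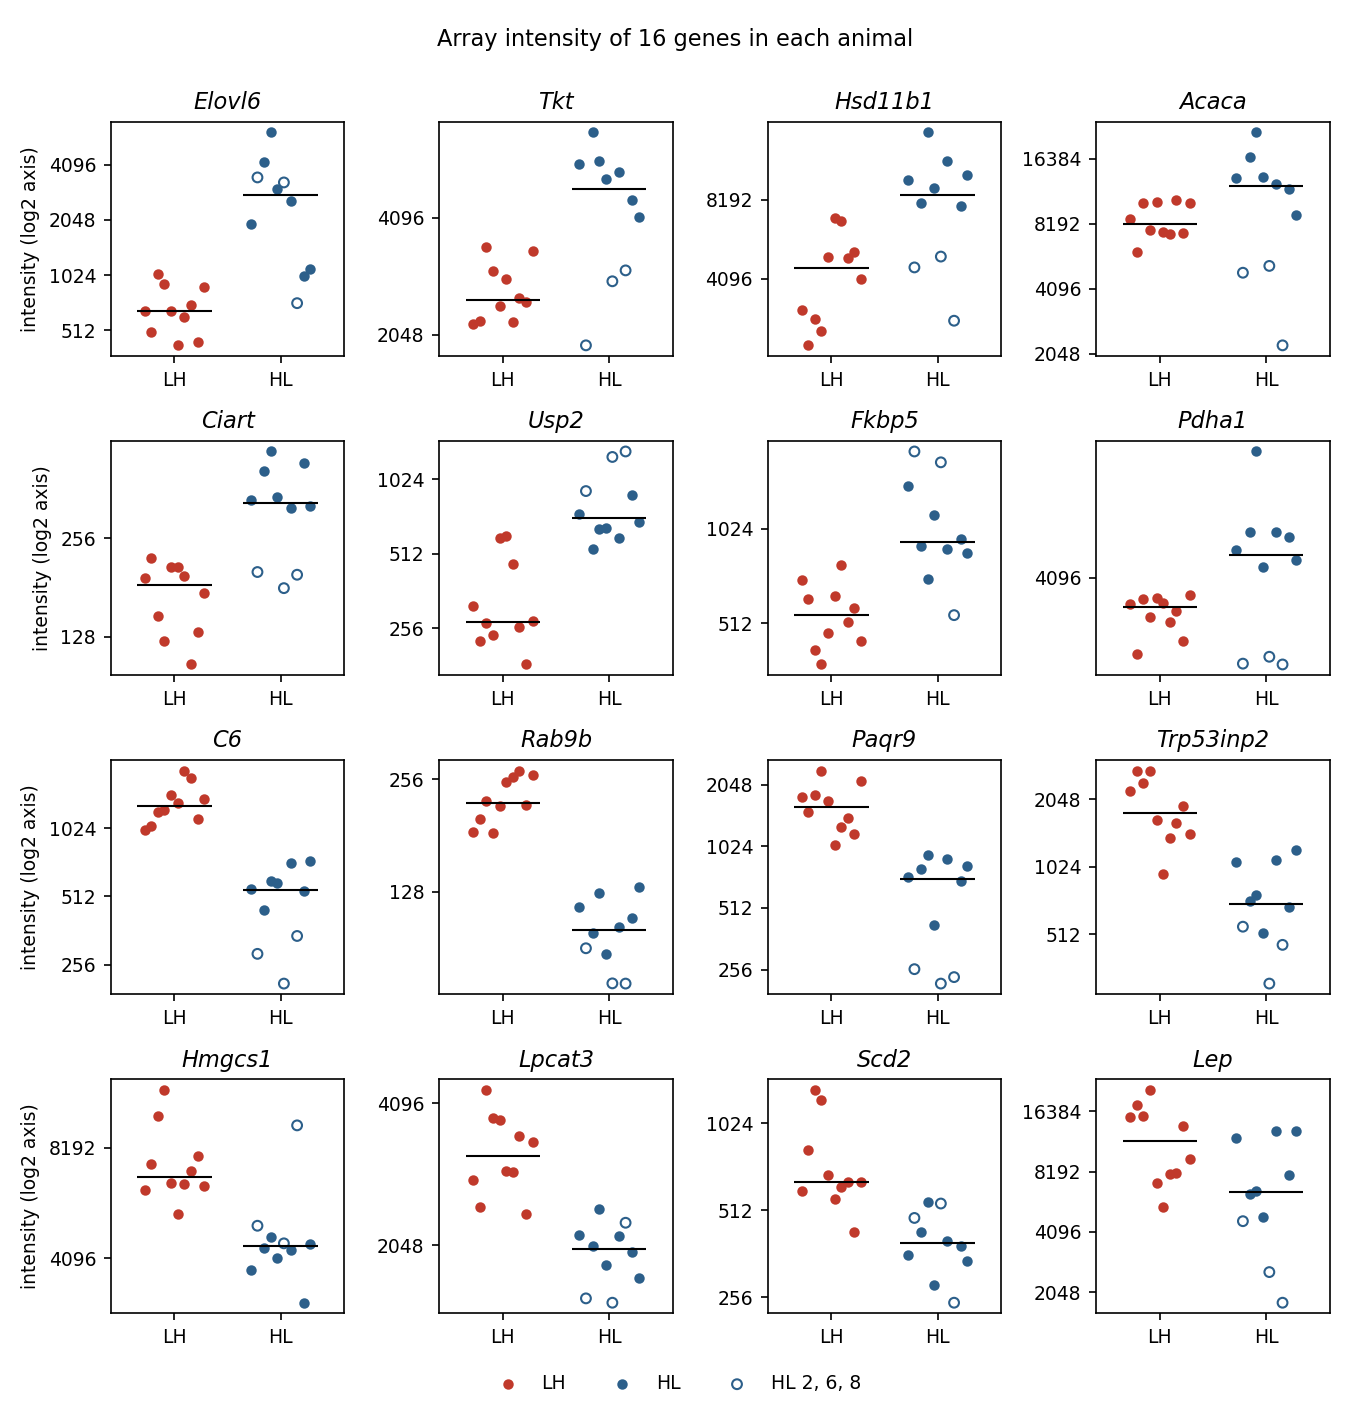
Array intensity (log2 axis, own range for each gene) of 16 genes in each LH animal (left, red) and HL animal (right, blue), with open circles for HL 2, HL 6 and HL 8 and a line at the median of all 10. Among the filled circles, Tkt, Hsd11b1, Ciart and Pdha1 do not overlap on the lower side in LH, nor do C6, Rab9b, Paqr9 and Hmgcs1 on the higher side, while Lep overlaps widely.

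Of the circadian clock list (15 genes tested), Ciart, Dbp, Tef and Usp2 were lower in LH animals over 17 arrays, and of these Ciart and Usp2 over 20. The hour at which each pad was taken is not stated, and its part in the levels of these rhythmic genes was not tested. Ciart, a repressor of the clock that is itself rhythmic, had lowest, median and highest intensities of 105, 184 and 223 in LH animals and 316, 342 and 471 in the 7 HL animals, without overlap, and differed by -1.15 ± 0.15 (adjusted p = 0.000737). Over 20 arrays the difference was -0.87 ± 0.19 (adjusted p = 0.0365), with HL 2, HL 6 and HL 8 inside the LH range. Of the 2 probes of Ciart, 2 passed over 17 arrays and 1 over 20. Dbp and Tef, PAR bZIP factors that pass the rhythm on to other genes, differed by -0.81 ± 0.18 (adjusted p = 0.04) and -0.51 ± 0.11 (adjusted p = 0.0354) over 17 arrays. Dbp spanned 2545 to 6145 (median 4771) units in LH animals and 6821 to 8375 (median 7428) in the 7 HL animals, and neither Dbp nor Tef overlapped. Both missed the threshold over 20 arrays (adjusted p = 0.289 and 0.422). Of the 2 probes of Tef, 1 passed over 17 arrays. Usp2, a deubiquitinase with a strong daily rhythm, had lowest, median and highest intensities of 183, 272 and 605 in LH animals and 537, 649 and 886 in the 7 HL animals, with overlapping ranges. It differed by -1.08 ± 0.22 (adjusted p = 0.0238) over 17 and -1.31 ± 0.22 (adjusted p = 0.0102) over 20 arrays. For Usp2, HL 2, HL 6 and HL 8 stood at 919, 1262 and 1328 units, above every other HL animal.

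The core loop itself gave no call over 17 arrays. Clock differed by 0.45 ± 0.09 (adjusted p = 0.0311) over 20 arrays, on 1 of its 2 probes, and by 0.37 ± 0.10 (adjusted p = 0.089) over 17. Arntl, its partner, differed by 0.42 ± 0.14, and the period genes Per1, Per2 and Per3, which close the loop, by -0.41 ± 0.13, -0.44 ± 0.11 and -0.38 ± 0.17 over 17 arrays, none of them past the test. Nr1d1, the repressor Rev-erb alpha, had medians of 625 units in LH animals and 686 in the 7 HL animals but a mean difference of 0.07 ± 0.11, of opposite sign to that of the medians. Of the clock list (20 genes, 19 on the array, 15 past the filter) 0 members were higher and 4 lower over 17 arrays. Of the 15 differences 11 were below 0, with a median of -0.40. Over 20 arrays 1 was higher, 2 were lower and the median was -0.18. Ciart and Usp2 kept their calls over 17 arrays with the cage as a random block (adjusted p = 0.00245 and 0.0394), and Dbp and Tef did not (adjusted p = 0.0963 and 0.105).

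The promoters of these 4 genes were searched for the E-box, the letters CACGTG on either strand, because Clock and Arntl bind it. The windows held 250 bases before and 50 after the start of the gene (RefSeq, GRCm38.p6). Ciart and Tef held it and Dbp and Usp2 did not, while 7.15% of all 32851 promoters of that length did. The window of Ciart held 3 matches, at -116, -58 and -44 from the start site, as at least 3 did in 0.0883% of all promoters. Tef has a pair of listed start sites, with a match at -127 of the first and at -138 of the second. The windows are printed 5′ to 3′ on the strand of the gene, with the E-box in capitals.
Ciart, chr3:95882179-95882478, minus strand: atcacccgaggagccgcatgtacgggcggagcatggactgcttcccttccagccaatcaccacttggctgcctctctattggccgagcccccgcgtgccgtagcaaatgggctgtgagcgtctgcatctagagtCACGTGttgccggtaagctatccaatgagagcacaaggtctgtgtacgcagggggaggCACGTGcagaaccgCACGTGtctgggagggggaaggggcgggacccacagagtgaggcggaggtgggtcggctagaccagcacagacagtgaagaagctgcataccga
Tef, first start, chr15:81802423-81802722, plus strand: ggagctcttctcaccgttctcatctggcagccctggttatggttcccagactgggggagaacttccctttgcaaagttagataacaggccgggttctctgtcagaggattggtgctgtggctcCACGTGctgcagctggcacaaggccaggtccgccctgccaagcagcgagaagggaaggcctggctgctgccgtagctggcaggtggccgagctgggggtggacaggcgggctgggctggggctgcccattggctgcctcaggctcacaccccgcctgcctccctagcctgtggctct
Tef, second start, chr15:81811164-81811463, plus strand: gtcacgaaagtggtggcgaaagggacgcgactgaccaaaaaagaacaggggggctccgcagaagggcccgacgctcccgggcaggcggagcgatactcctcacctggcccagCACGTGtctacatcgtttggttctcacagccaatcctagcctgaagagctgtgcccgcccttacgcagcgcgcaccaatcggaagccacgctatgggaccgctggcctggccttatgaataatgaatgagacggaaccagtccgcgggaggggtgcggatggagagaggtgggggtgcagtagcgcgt
A match is a description of the letters and not of binding in these animals. Among genes called lower over 17 arrays with a promoter entry, 5 of 27 (18.5%) held the E-box in any of their windows, and among genes called higher 2 of 28 (7.14%), beside 8.09% of all 27025 genes with an entry.

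Hsd11b1, which turns inactive 11-dehydrocorticosterone into corticosterone inside the cell, was lower in LH animals. It spanned 2283 to 6995 (median 4502) units in LH animals and 7746 to 14844 (median 9735) in the 7 HL animals, with no overlap, and differed by -1.28 ± 0.22 (adjusted p = 0.00813); 3 of its 4 probes passed. Over 20 arrays it missed the threshold (-0.89 ± 0.27, adjusted p = 0.122), with HL 2, HL 6 and HL 8 inside the LH range at 4529, 4982 and 2835 units. Fkbp5, a co-chaperone of the glucocorticoid receptor and a classical target of it, passed both ways. Its lowest, median and highest intensities were 379.7, 546 and 787 in LH animals and 707, 899.9 and 1393 in the 7 HL animals, and it differed by -0.82 ± 0.15 (adjusted p = 0.0129) over 17 and -0.91 ± 0.19 (adjusted p = 0.0332) over 20 arrays. Of the glucocorticoid list (13 genes, 12 on the array and past the filter) these 2 were lower and 0 higher over 17 arrays. Of the 12 differences 10 were below 0, with a median of -0.25. Sgk1, a kinase induced by the receptor, differed by -0.46 ± 0.14 and Tsc22d3, a further target, by -0.16 ± 0.15, both short of the threshold. Both calls over 17 arrays remained with the cage as a random block (adjusted p = 0.0167 for Hsd11b1 and 0.0394 for Fkbp5). Over 20 arrays the glucocorticoid list had 1 member lower (Fkbp5) and 0 higher. There 7 of the 12 differences were below 0, with a median of -0.14.

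Cidea, a lipid droplet protein of brown and beige adipocytes, had the second largest difference among the named genes. It spanned 179 to 413 (median 211) units in LH animals and 346 to 1950.4 (median 610.0) in the 7 HL animals, and the difference of -1.62 ± 0.33 (adjusted p = 0.0221) over 17 arrays was -1.03 ± 0.40 (adjusted p = 0.182) over 20. The other beige genes measured, Ppargc1a, Cox7a1, Cox8b and Ebf2, differed by 0.00 ± 0.13, -0.25 ± 0.28, -0.49 ± 0.21 and -0.01 ± 0.13, none past the test, and Ucp1, the uncoupling protein, did not pass the filter. Among genes outside these pathways, Pcsk4, a proprotein convertase known from germ cells, had lowest, median and highest intensities of 135, 208 and 366 in LH animals and 435, 463 and 575 in the 7 HL animals, with no overlap and all 4 of its probes past the test (-1.14 ± 0.18, adjusted p = 0.00446). The testis list had a median difference of 0.30 over the same 17 arrays, and the part of such cells in the level of Pcsk4 was not tested. Ripk4, a kinase of epithelial cells, differed by -0.93 ± 0.19 (adjusted p = 0.0214) over 17 and -1.21 ± 0.21 (adjusted p = 0.0112) over 20 arrays. On HL 2, HL 6 and HL 8 Ripk4 stood at 597, 550 and 713 units, against a median of 327 in the 7 HL animals. Rprml differed by -0.81 ± 0.15 (adjusted p = 0.0109) and Oscp1 by -0.74 ± 0.12 (adjusted p = 0.00666) over 17 arrays. Egln3, a prolyl hydroxylase of the hypoxia factor HIF, differed by -0.78 ± 0.17 (adjusted p = 0.0424) over 20 arrays and -0.62 ± 0.15 (adjusted p = 0.0632) over 17. Sema4b, Reep6 (1 of its 2 probes) and Gm5643 also passed over 20 arrays only, with differences of -0.51 ± 0.11, -0.48 ± 0.11 and -0.53 ± 0.11. Pcsk4, Rprml and Oscp1 kept their calls over 17 arrays with the cage as a random block (adjusted p = 0.0112, 0.0421 and 0.0153), and Cidea and Ripk4 did not (adjusted p = 0.0839 and 0.086).

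On the higher side, C6, a component of the complement membrane attack complex, and Rab9b, a small GTPase of endosomal traffic, passed under nearly every alternative. C6 had lowest, median and highest intensities of 1009.7, 1278 and 1837 in LH animals and 211, 546 and 736 in all 10 HL animals, so that even with HL 2, HL 6 and HL 8 the groups did not overlap. It differed by 1.15 ± 0.13 (adjusted p = 0.000118) over 17 and 1.48 ± 0.20 (adjusted p = 0.000719) over 20 arrays, on both of its probes. Rab9b had 184, 222 and 270.3 units in LH animals and 72.8, 101 and 132 in all 10 HL animals, close to the background, above which it stood on 8 of the 10 HL arrays. Its difference of 1.04 ± 0.10 (adjusted p = 2.68e-05) over 17 and 1.19 ± 0.11 (adjusted p = 1.69e-05) over 20 arrays carried the smallest p of the comparison. C6 kept its call in 20 of 20 alternatives over 17 arrays and 26 of 27 over 20 arrays, and Rab9b in 19 of 19 and 25 of 26, the exception being cage means as units over 20 arrays. The rest of the complement list (10 genes) had no member past the test over 17 arrays and the list a median of 0.02.

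Paqr9, a membrane protein of the progestin and adipoQ receptor family, had the largest fold of the called genes on the higher side over 20 arrays. It spanned 1041 to 2396 (median 1600.1) units in LH animals and 423 to 926 (median 795) in the 7 HL animals, and differed by 1.10 ± 0.17 (adjusted p = 0.00489) over 17 and 1.59 ± 0.28 (adjusted p = 0.0112) over 20 arrays, without overlap in either. Of the 2 probes of Paqr9, 1 passed over 17 arrays and 2 over 20. Trp53inp2, a regulator of autophagy and of nuclear receptors, had lowest, median and highest intensities of 949.9, 1774 and 2744 in LH animals and 517, 768 and 1216 in the 7 HL animals, with overlap (1.12 ± 0.21, adjusted p = 0.0157). Lhfpl2, a tetraspan membrane protein, differed by 0.82 ± 0.15 (adjusted p = 0.0127) without overlap, Wfdc12, a protease inhibitor, by 0.79 ± 0.13 (adjusted p = 0.00582) and Atp10a, a phospholipid flippase, by 0.76 ± 0.17 (adjusted p = 0.0453). S100a8, a calcium-binding protein of neutrophils and monocytes, ran at 529.6, 623 and 965 units in LH animals and 313, 374 and 648 in the 7 HL animals (0.75 ± 0.17, adjusted p = 0.0454), and Tmem45b, a membrane protein, differed by 0.75 ± 0.15 (adjusted p = 0.0227). With the cage as a random block over 17 arrays Paqr9, Trp53inp2, Lhfpl2 and Wfdc12 kept their calls (adjusted p = 0.0209, 0.0466, 0.0332 and 0.0299), and Atp10a, S100a8 and Tmem45b did not (adjusted p = 0.0963, 0.188 and 0.0944). Krt79, Tlcd2 and Tuba1a passed over 20 arrays (1.34 ± 0.29, 1.29 ± 0.30 and 1.29 ± 0.30) and not over 17 (0.92 ± 0.24, 0.88 ± 0.26 and 1.05 ± 0.33). Of the 37 shared probes that were higher in LH animals, 35 had a smaller difference over 17 than over 20 arrays.

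Enzymes of sterol synthesis lay on the higher side in LH animals. Hmgcs1, the synthase that makes HMG-CoA for the mevalonate pathway, had lowest, median and highest intensities of 5419.6, 6822 and 11801 in LH animals and 3099, 4305 and 4681 in the 7 HL animals, with no overlap, and differed by 0.84 ± 0.13 (adjusted p = 0.00489). Over 20 arrays it was just short of the threshold (0.68 ± 0.16, adjusted p = 0.0513), with HL 8 at 9435 units. Ebp, the sterol isomerase of the late pathway, differed by 0.30 ± 0.06 (adjusted p = 0.0326). These 2 were higher and 0 lower over 17 arrays in the list of cholesterol synthesis and uptake (23 genes, 17 on the array and past the filter). Of the 17 differences 16 were above 0, with a median of 0.25. Lss, the lanosterol synthase, and Hsd17b7, a later enzyme, differed by 0.66 ± 0.23 and 0.52 ± 0.13 and did not pass. Over 20 arrays 0 members passed, 12 of 17 were above 0 and the median was 0.12.

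Among targets of the liver X receptors (15 genes, 12 on the array, 11 past the filter), which sense oxysterols, 2 were higher and 0 lower over 17 arrays. Of the 11 differences 10 were above 0, with a median of 0.18. Lpcat3, an acyltransferase that puts polyunsaturated fatty acids into phospholipids, had 2382, 3169 and 4380.3 units in LH animals and 1744, 2041 and 2441 in the 7 HL animals, and differed by 0.64 ± 0.11 (adjusted p = 0.00981) over 17 and 0.70 ± 0.11 (adjusted p = 0.00872) over 20 arrays. Of the 2 probes of Lpcat3, 1 passed in each fit. Apoc1, an apolipoprotein, differed by 0.72 ± 0.16 (adjusted p = 0.04) on its brightest probe and passed on both of its probes. Apoe, its neighbour in the genome and the ligand for uptake of lipoprotein remnants, differed by 0.85 ± 0.19 (adjusted p = 0.0424) over 20 arrays and 0.57 ± 0.14 (adjusted p = 0.0704) over 17. Oxct1, which breaks down ketone bodies in mitochondria, was higher by 0.46 ± 0.10 (adjusted p = 0.0486) and the only member of its list of 17 genes to pass. With the cage as a random block over 17 arrays Hmgcs1 and Lpcat3 kept their calls (adjusted p = 0.0112 and 0.04), and Ebp, Apoc1 and Oxct1 did not (adjusted p = 0.142, 0.119 and 0.194).

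The promoter of Hmgcs1 is shown because 16 of 17 genes of its pathway lay on the same side and it holds 4 CCAAT boxes, the letters ATTGG on either strand, which are bound by the factor NF-Y beside the sterol-sensing SREBP proteins. They lie at -237, -176, -45 and 10 from the start site and are in capitals. Of all promoters of that length 37.4% held the letters at least once and 1.06% at least 4 times. Since the promoter was picked for its matches, these shares are no test.
Hmgcs1, chr13:119690101-119690400, plus strand: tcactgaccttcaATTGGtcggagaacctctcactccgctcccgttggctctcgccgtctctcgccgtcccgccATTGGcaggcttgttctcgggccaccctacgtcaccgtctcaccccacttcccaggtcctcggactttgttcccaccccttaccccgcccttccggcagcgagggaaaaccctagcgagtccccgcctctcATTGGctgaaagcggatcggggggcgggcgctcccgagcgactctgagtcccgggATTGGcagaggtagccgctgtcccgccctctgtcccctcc
Among genes called higher over 17 arrays with a promoter entry, 13 of 28 (46.4%) held a CCAAT box, and among genes called lower 11 of 27 (40.7%), both near the 41.1% of all genes with an entry. The repeat unit of nuclear receptors, AGGTCA on either strand, was held by 8 of 28 (28.6%) and 3 of 27 (11.1%), beside 18.1% of all genes with an entry.

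With HL 2, HL 6 and HL 8 included, some of the genes whose values are given elsewhere over 17 arrays alone also passed with animals as independent, and fewer with the cage as a random block. On the lower side Pdk1, Pcsk4 and Oscp1 differed by -0.48 ± 0.09, -0.89 ± 0.20 and -0.70 ± 0.13 over 20 arrays (adjusted p = 0.0235, 0.0464 and 0.0154). Of the 4 probes of Pcsk4, 2 passed over 20 arrays. On the higher side Trp53inp2, Lhfpl2, Wfdc12, Atp10a, S100a8 and Tmem45b differed by 1.41 ± 0.24, 0.96 ± 0.17, 1.09 ± 0.19, 0.88 ± 0.17, 1.09 ± 0.23 and 1.13 ± 0.25 (adjusted p = 0.00987, 0.0112, 0.0112, 0.0176, 0.0287 and 0.0421), and the lipid genes Scd2, Apoc1 and Oxct1 by 0.87 ± 0.19, 1.04 ± 0.21 and 0.65 ± 0.15 (adjusted p = 0.0398, 0.0277 and 0.0464). Pdha1, Pdp2, Hk2 and Rprml kept their sign at -0.27 ± 0.14, -0.34 ± 0.09, -0.25 ± 0.08 and -0.54 ± 0.20 and did not pass (adjusted p = 0.275, 0.0762, 0.143 and 0.176), as held for Ebp and Pecam1 at 0.19 ± 0.08 and 0.90 ± 0.25 (adjusted p = 0.225 and 0.0955). For Pdha1 all 3 arrays lay below every LH animal, at 2810.0, 2896 and 2799.9 units, and for Pecam1 likewise, at 345, 275 and 230.2 units.

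Of the 33 named genes called over 20 arrays, 12 kept the call there when the cage was a random block, namely Rab9b, C6, Usp2, Lpcat3, Trp53inp2, Ripk4, Atp10a, Wfdc12, Lhfpl2, Paqr9, Elovl6 and Oscp1 (adjusted p = 0.000133 to 0.0475). The other 21, Gm5643, Pdk1, Peg3, Apoc1, Scd2, Gpd2, S100a8, Clock, Krt79, Fkbp5, Ciart, Sema4b, Egln3, Tuba1a, Slc5a7, Apoe, Pcsk4, Tlcd2, Reep6, Tmem45b and Oxct1, lost it (adjusted p = 0.074 to 0.156). Ciart, Gpd2, Fkbp5, Pdk1 and Pcsk4 thus passed with the cage as a block over 17 arrays and not over 20 (adjusted p = 0.111, 0.0924, 0.11, 0.0744 and 0.129 over 20), and Ripk4 and Atp10a over 20 arrays and not over 17.

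Genes known to rise as fat pads expand lay mostly on the higher side in LH animals, with ranges that mostly overlapped and few calls. Lep, the hormone leptin, had lowest, median and highest intensities of 5461, 11623 and 20988 in LH animals and 4843, 7848 and 13088 in the 7 HL animals, and did not pass over 17 arrays (0.39 ± 0.28, adjusted p = 0.745) or over 20 (0.87 ± 0.34, adjusted p = 0.187). Mest, an imprinted gene of adipocyte growth, spanned 434 to 5891 (median 2568) units in LH animals and 326 to 2373 (median 1273) in the 7 HL animals, and its difference of 1.04 ± 0.47 did not pass (adjusted p = 0.48). Sfrp5, a secreted Wnt inhibitor, differed by 0.33 ± 0.30 and Npr3, the clearance receptor of natriuretic peptides, by 0.26 ± 0.22. Slc5a7, a choline transporter, was above background on 10 of 10 LH arrays and 2 of 10 HL arrays, at 83.7, 144 and 576 units in LH animals and 62.0, 77.7 and 103 in HL animals, and differed by 1.2 ± 0.27 (adjusted p = 0.0464) over 20 and 1.17 ± 0.32 (adjusted p = 0.12) over 17 arrays. Peg3, a further imprinted gene, was above background on 9 of 10 LH arrays and 4 of 10 HL arrays, so that its size of difference is uncertain, and differed by 0.72 ± 0.14 (adjusted p = 0.0184) over 20 and 0.63 ± 0.15 (adjusted p = 0.0708) over 17 arrays, and Igf2, an imprinted growth factor, by -0.39 ± 0.13 over 17. Of the 11 genes of this list 1 (Trp53inp2) was higher and 0 lower over 17 arrays, with 9 of 11 differences above 0 and a median of 0.39. An unadjusted p under 0.05 was reached by 6 of the 11 (limma), beside 1024 of all 9797 genes. The list was chosen with earlier results of these data known, so this count is no test. Over 20 arrays 3 were higher (Trp53inp2, Slc5a7 and Peg3) and 0 lower, 10 of 11 differences were above 0 and the median was 0.77. Slc5a7 and Peg3 passed the filter on dim probes mostly through the HF-fed groups, in which they are high. Slc5a7 stood above background on 10 HH and 5 LL arrays and Peg3 on 9 and 7. Their calls are therefore no support for the list.

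Markers of cell types and of the matrix made almost no calls with or without HL 2, HL 6 and HL 8. The list medians given here were smaller without these arrays. The adipocyte identity list (16 genes) had a median difference of -0.02 over 17 arrays and 0.47 over 20, with 0 members past the test in either, and Adipoq differed by -0.05 ± 0.07 and 0.29 ± 0.18. Lipolysis and lipid droplet genes (13) had a median of 0.05 over 17 arrays and 0.54 over 20, with only Cidea past the test and only over 17. Pecam1, an adhesion molecule of endothelial cells, was higher in LH animals over 17 arrays at 942, 1149 and 1466 units, against 677, 901 and 1057 in the 7 HL animals (0.41 ± 0.09, adjusted p = 0.0448, with the cage as a random block adjusted p = 0.154), as the only call in the endothelial list (12 genes, 11 above 0, median 0.15). Of the 2 probes of Pecam1, 1 passed over 17 arrays. Adgre1, the macrophage marker F4/80, differed by -0.09 ± 0.22 and Ccl2, a monocyte chemokine, by 0.29 ± 0.21, and the macrophage list (15 genes) had 0 calls and a median of 0.04. Collagen and matrix genes (25) had 0 calls, 24 differences above 0 and a median of 0.23, and interferon-stimulated genes (15) had 0 calls, 15 differences above 0 and a median of 0.15, beside 50.6% of all genes above 0. No list had more than 4 members past the test in 1 direction.

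**Figure D4:**
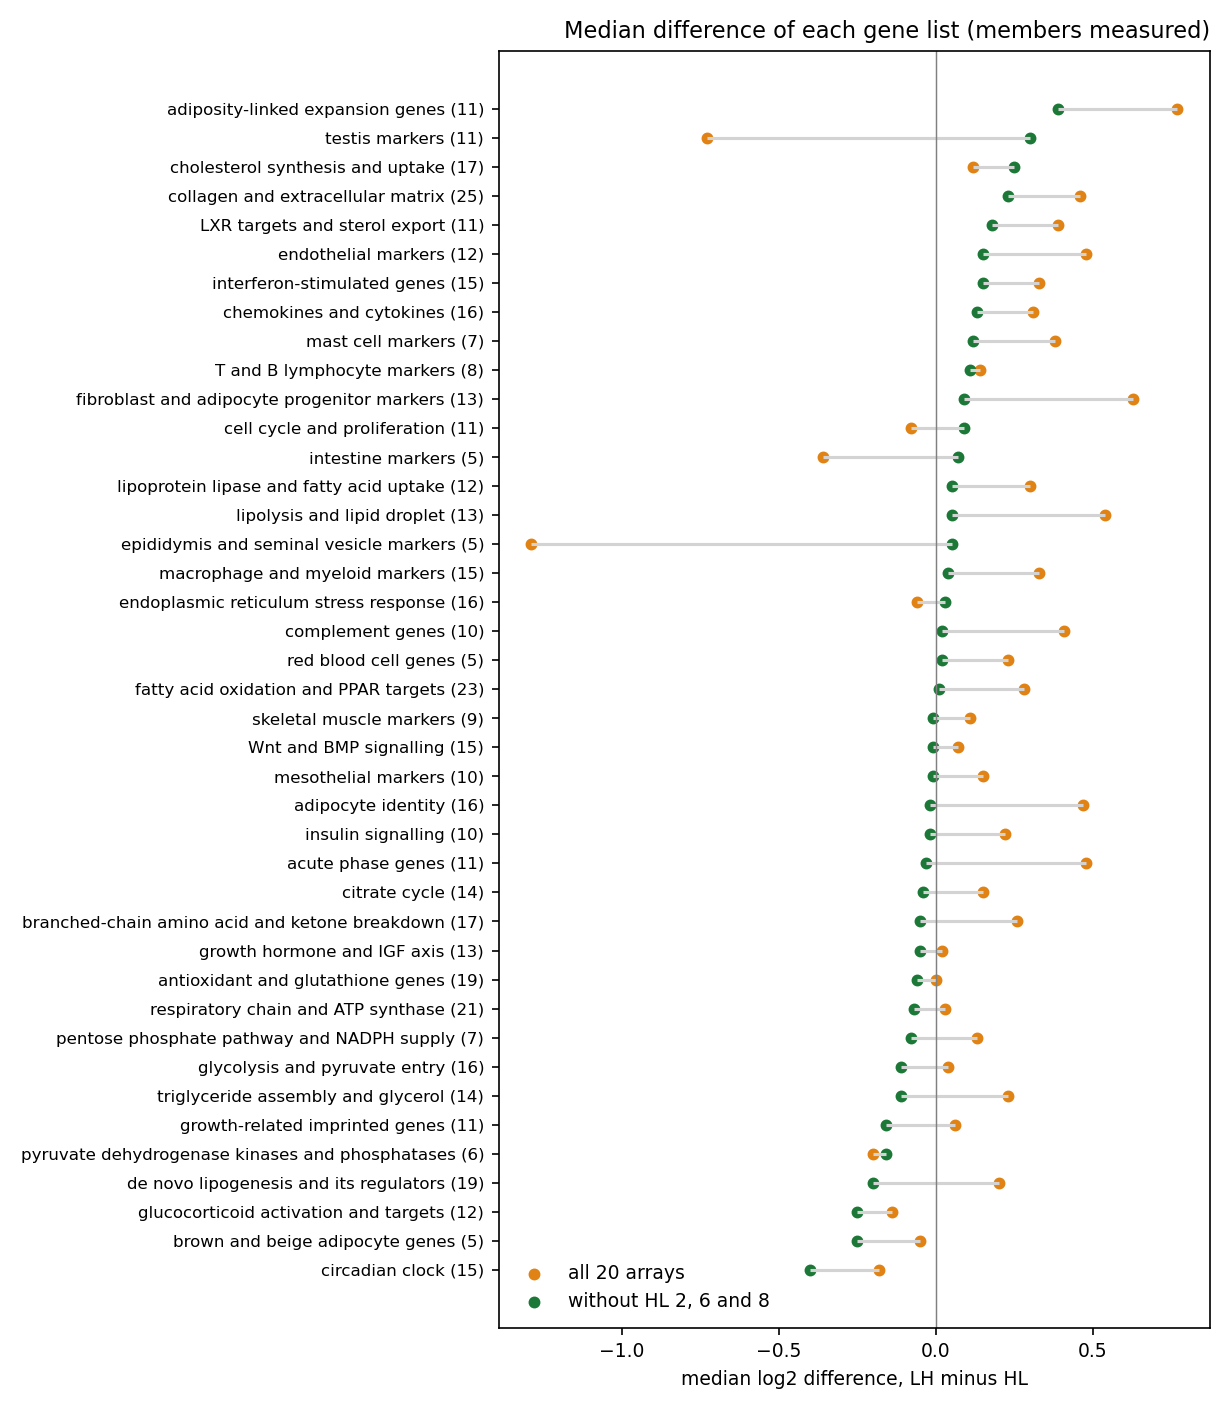
Median log2 difference (LH minus HL, x axis) of each gene list with at least 5 measured members (number in brackets), over all 20 arrays (orange) and without HL 2, HL 6 and HL 8 (green). The clock list lies lowest over 17 arrays at -0.40, and the epididymis and testis lists lie at -1.29 and -0.73 with and at 0.05 and 0.30 without the 3 arrays.

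Because LH and HL differ in both diets, their difference is exactly the post-weaning effect minus the maternal effect of the 4 groups. Both were fitted over the 35 arrays left without HL 2, HL 6, HL 8 and a pair of LL arrays (LL 1 and LL 4) that also correlated poorly with the rest. Of the 97 probes called between LH and HL over 17 arrays, the post-weaning part was the larger in size for 90, beside 58.8% of all probes, and its median share of the difference was 77.7%. It passed its own test for 86 of the 97, beside 2.87% of all probes (1.32% higher and 1.55% lower with HF). The maternal part passed for 0 of them, with 42 at an unadjusted p under 0.05, and for 0 (0.00%) of all 14248 probes (limma, 677 or 4.75% at an unadjusted p under 0.05, smallest adjusted p 0.189). The parts had opposite signs, so that both widened the difference, for 90 of the 97, beside 53.9% of all probes. Over all 40 arrays the post-weaning effect passed for 5.39% of all probes (4.27% higher, 1.12% lower) and the maternal effect for 0, with 3.46% at an unadjusted p under 0.05, and the post-weaning part was the larger for 96 of the 100 probes called over 20 arrays, beside 68.6% of all probes. These shares describe the called probes and are no test, since the calls and the parts come from the same HL and LH arrays.

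The estimates of the parts varied from gene to gene, and this variation was not tested. No maternal part named here passed (limma, adjusted p = 0.204 for Fkbp5 and at least 0.841 for the others). The post-weaning parts of Fkbp5, Ripk4 and Scd2 did not pass either (adjusted p = 0.433, 0.0911 and 0.0928). Tkt, Hsd11b1 and Gpd2 had nearly all of it in the post-weaning part, with -1.03 ± 0.10, -1.35 ± 0.12 and -0.86 ± 0.10 for the animals' own HF diet and -0.03 ± 0.10, -0.07 ± 0.12 and 0.02 ± 0.10 for the maternal HF diet. Elovl6 had -1.73 ± 0.23 for the post-weaning and 0.14 ± 0.23 for the maternal diet. Acaca had a post-weaning part of -0.84 ± 0.10 and a maternal part of the same sign, -0.15 ± 0.10, and so a smaller difference between LH and HL than the post-weaning diet alone gave. Fkbp5 stood at the other end, with -0.24 ± 0.13 for the post-weaning and 0.58 ± 0.13 for the maternal diet (unadjusted p = 5.72e-05, adjusted p = 0.204). Its medians were 546 units in LH, 728 in HH, 925 in HL and 577 in LL animals, over all 10 of each. Usp2 and Ripk4 had maternal parts of 0.49 ± 0.16 and 0.47 ± 0.15, about as large as their post-weaning parts of -0.59 ± 0.16 and -0.46 ± 0.15. On the higher side Paqr9, Scd2 and Atp10a had maternal parts of -0.38 ± 0.12, -0.39 ± 0.16 and -0.29 ± 0.12 and post-weaning parts of 0.72 ± 0.12, 0.50 ± 0.16 and 0.47 ± 0.12. Pdk4 and Sfrp5 had a positive value in both parts (0.76 ± 0.15 and 0.45 ± 0.15 for Pdk4, 0.82 ± 0.18 and 0.49 ± 0.18 for Sfrp5, post-weaning first), which offset each other between LH and HL. Among the list medians, cholesterol synthesis had 0.07 for the post-weaning and -0.18 for the maternal diet, and the clock list -0.26 and 0.12.

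**Figure D5:**
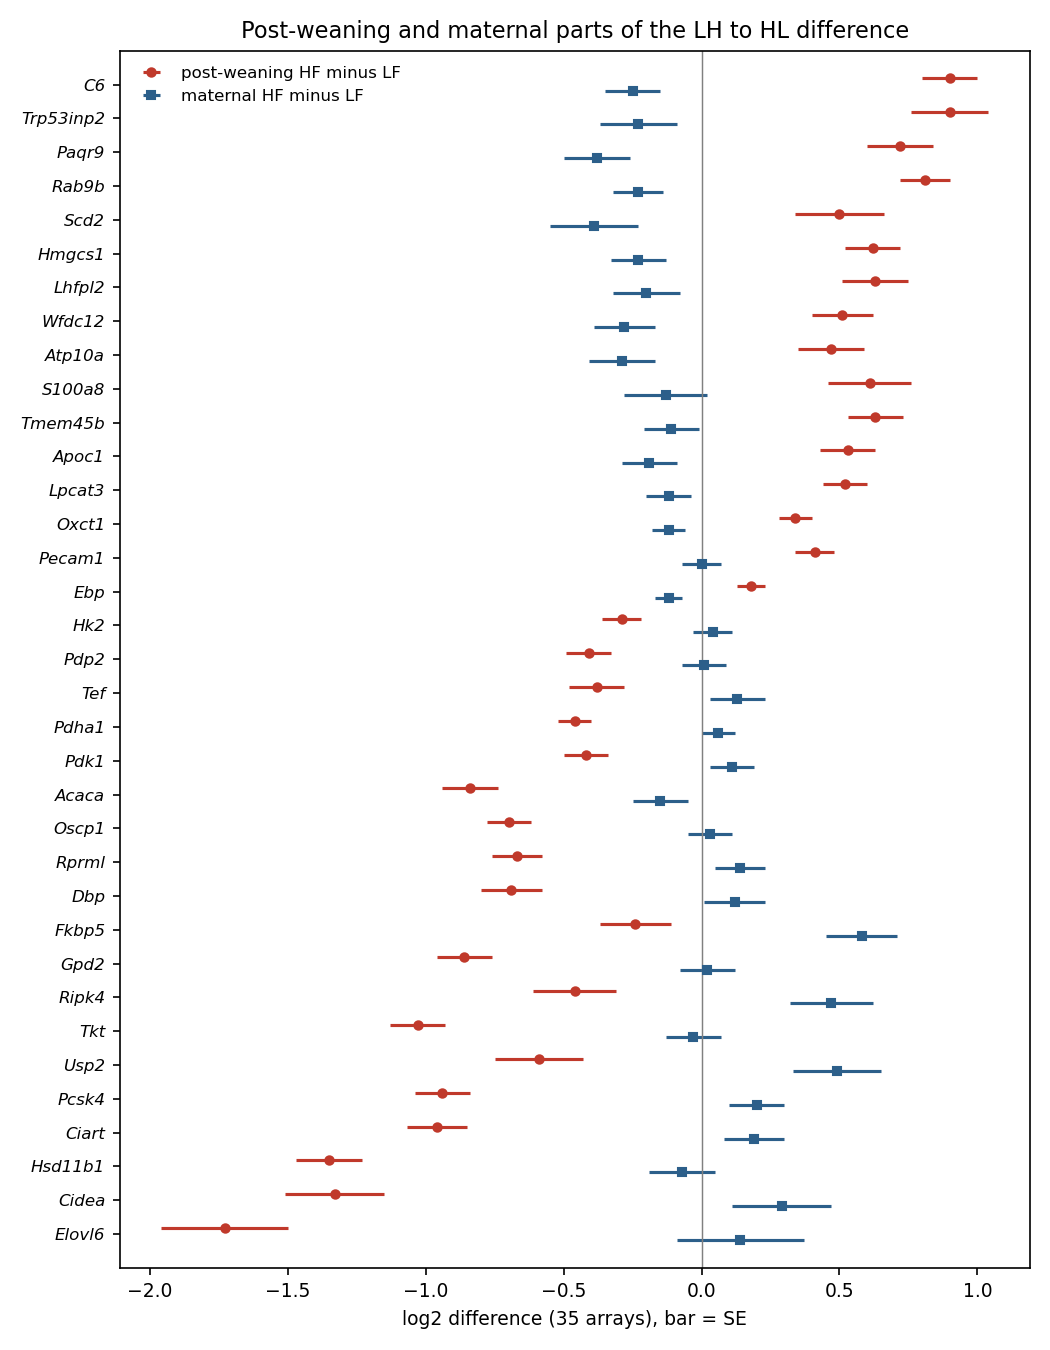
Post-weaning HF minus LF (red circles) and maternal HF minus LF (blue squares), log2 difference ± SE over 35 arrays, for the named genes called between LH and HL over 17 arrays, ordered by that difference from the highest at the top. The LH minus HL difference is the circle minus the square; Fkbp5, with -0.24 and 0.58, is the gene whose maternal part is the larger by most.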

How the data were processed

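Gene expression was measured in gonadal fat of 40 mice with 1 Illumina MouseRef-8 v2.0 array each. The authors read fluorescence intensities with BeadStudio (version not given) and deposited them after quantile normalization over the 40 arrays, without background subtraction, so that folds of dim genes are understated. Array medians were 98.7 to 99.1 units. The members of the comparison, the gene lists and the tests were chosen with earlier results of these data known.

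Of 25697 probes, 14248 were kept that exceeded, on at least 20 arrays, the array's 95th percentile of 1305 olfactory and vomeronasal receptor probes (78.06 to 94.28 units). Gene names came from the platform annotation, updated by gene identifier (23978 probes with 1 name, 1719 unnamed). LH was compared with HL on the log2 scale with limma 3.58.1 in R 4.3.3 (linear model, empirical Bayes with an intensity trend, two-sided), with Benjamini-Hochberg adjustment over all 14248 probes and a threshold of 0.05, over all 20 arrays and without HL 2, HL 6 and HL 8. These arrays, like LL 1 and LL 4, had a mean correlation with the others under a limit of 0.926. The scripts were tested on simulated data. Body measures were compared by permutation tests (scipy 1.17.1, 100000 resamples, or exact for cage means and for 7 HL animals).

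Named genes were the 12 highest and 12 lowest called differences of either fit, 1 probe a gene (the brightest), up to 4 called members of each of 42 lists, and 14 genes given whatever their result. Other list members are examples chosen after their values were seen. Alternatives were the cage as a random block, cage means, each cage left out, all 4 groups in 1 model, an offset of 50, 2 centrings, other filters, priors and array weights, 1 probe per gene, organ marker levels as covariates, and single arrays left out. Replicates are separate animals, numbered in the order of deposition.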

Additional observations from a re-analysis of the deposited data

Results flagged for a closer look

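Among 122 groups of values tested, which took in those of the 57 named genes, 5 had 1 animal far from the rest by Dixon's criterion. By chance about 1 in 20 is flagged. HL 8, which carried bright intestinal, epididymal and testis transcripts, gave 3 of them: Hmgcs1 at 9434.9 units, above every other HL animal, and Rprml at 204.6 and Hk2 at 2709.8 units, below every other HL animal. Ripk4 stood at 298.8 units in LH 7, above the other LH animals, and Ccl2 at 227.2 units in HL 1, above the other HL animals.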

How the results depend on the processing

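Over all 20 arrays 100 probes passed. With the cage as a random block 21 did, with cage means as units 0, with all 4 groups in 1 model 335, with no filter on dim probes 39, and without HL 2 or without HL 6 alone 39 and 55. Leaving out cages 4, 10, 11, 12, 14 and 23 gave 8, 30, 8, 567, 23 and 22. Over 17 arrays 97 passed, against 49 with the cage as a random block, 6 with cage means, 43 with all 4 groups, 164 with array weights, and 40, 50, 266, 50, 63 and 53 without cages 1, 4, 9, 11, 14 and 23. The other alternatives stayed within 1.5 times these counts, and leaving out LH 5 beside HL 2, HL 6 and HL 8 gave 82. LH 7 was left out only with the rest of cage 9. The post-weaning diet gave 768 calls over 40 arrays and 409 over 35, and the maternal diet 0 in both. The difference in glucose, 27.8 mg/dl, was 27.1 by cage means and 29.2 without HL 2, HL 6 and HL 8, both short of the threshold. No paired analysis was possible because the replicate numbers follow the order of deposition and pair no animals.

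Signs changed for 6 named genes, none of them called in the fit concerned. Over 20 arrays Acaca had 0.053 with cage means and 0.114 without cage 1. Adgre1 had -0.033 with array weights, -0.087 over 17 arrays and -0.023 without LH 5 as well, and Adipoq -0.010, -0.051 and -0.036 in the same settings. Scd1 had -0.136 with centring on adipose genes and -0.016 over 17 arrays, and Ebp -0.076 with that centring. Over 17 arrays, leaving out cage 9 gave Adgre1 0.141, Adipoq 0.026 and Scd1 0.066, leaving out cage 1 gave Scd1 0.042, and array weights gave Scd1 0.022 and Nr1d1 -0.024. The causes were not tested. Arrays, cages and signal near background limit what could be called.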
